A study of Mus musculus with 6 samples.

Results

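The enzymes of glycolysis, the pentose phosphate pathway and the citrate cycle were examined in the cerebellum of Mn-deficient mice. They are a fixed list of 44 genes, chosen by pathway, of the 53715 mouse genes in the count table, and all 44 were measured above the filter on low counts. Male C57BL/6 mice had been fed a low-Mn diet (0 ppm Mn by the labels) or a normal-Mn diet (35 ppm Mn) for 2 weeks, with 3 libraries per diet. The labels give no genetic change and no other agent, and call the mice adult. The methods count 3 biological replicates per diet while a legend speaks of technical triplicates, so p-values here measure only the spread between these libraries. RNA with poly(A) tails was sequenced, and each library held between 14548336 and 21277469 expected counts, the reads that the authors' software assigned to genes.

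Glycolysis splits glucose into pyruvate in the cytosol, with a small yield of ATP, and lactate dehydrogenase converts pyruvate to lactate and back. The pentose phosphate pathway branches off at glucose phosphate and makes NADPH and ribose phosphate. The pyruvate dehydrogenase complex feeds acetyl groups into the citrate cycle, which supplies the mitochondrial respiratory chain that meets most of the energy demand of neurons.

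Promoter sequence is shown for 3 enzymes picked by their values, though none passed a test. Tkt had the smallest p of the list. Ldha and Ldhb were the only isozyme pair whose ratio did not overlap between the diets. Each run is the 250 bases before the transcription start in RefSeq (GRCm38.p6), written 5′ to 3′ on the gene's strand. Capitals mark ACGTG, a form of the core of the hypoxia response element, read on both strands. Other forms of that core, such as GCGTG, were not searched. CACGTG contains ACGTG on each strand and so counted as 2 matches.
Tkt, chr14:30548881-30549130, plus strand: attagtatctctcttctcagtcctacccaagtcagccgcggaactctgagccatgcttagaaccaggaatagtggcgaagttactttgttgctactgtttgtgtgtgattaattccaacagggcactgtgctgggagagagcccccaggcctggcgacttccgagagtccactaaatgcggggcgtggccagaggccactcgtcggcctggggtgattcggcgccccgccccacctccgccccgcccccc
Ldha, chr7:46845554-46845803, plus strand: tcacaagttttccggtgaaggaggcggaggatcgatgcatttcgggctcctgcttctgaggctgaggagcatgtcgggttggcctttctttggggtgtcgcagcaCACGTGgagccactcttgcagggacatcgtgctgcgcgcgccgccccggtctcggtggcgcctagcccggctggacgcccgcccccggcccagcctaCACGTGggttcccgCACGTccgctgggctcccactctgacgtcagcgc
Ldhb, chr6:142507958-142508207, minus strand: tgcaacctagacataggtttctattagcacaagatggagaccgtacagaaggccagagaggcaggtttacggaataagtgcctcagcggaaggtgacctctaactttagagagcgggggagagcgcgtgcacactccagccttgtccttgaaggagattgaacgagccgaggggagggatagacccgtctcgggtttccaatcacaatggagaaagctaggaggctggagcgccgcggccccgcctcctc
RefSeq gives Ldha 2 windows, of which only the 1 printed here held ACGTG, with 5 matches. The windows of Ldhb and Tkt held no ACGTG. The start used for Ldha lies 4329 bases from the start of the gene in GENCODE M21, and that for Tkt 772 bases. Among the enzymes with a window (43 of 44), 23 of 64 windows (35.9%) held the core, against 16.6% of all 32851 mouse windows. Several windows can belong to the same gene, and Ogdh alone supplied 6 of these 23. Counted by gene, 14 of the 43 enzymes held the core in some window, against 4998 of 27025 mouse genes. CACGTG was in 10.9% of the enzyme windows and in 6.02% of all windows. All windows were not matched to the enzyme windows for base content, and ACGTG itself contains CG. What these shares owe to base content was not tested. A match is only a run of letters and no evidence that a factor was bound there in these mice.

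Levels between genes were compared per kilobase of transcript, as CPM (counts scaled to a common library size) per kb of the longest principal transcript of GENCODE M21. Gapdh, which oxidizes glyceraldehyde phosphate, had the highest level of the 44, 1172 ± 25.6 CPM per kb in low-Mn and 1230.2 ± 37.4 in normal-Mn cerebellum (SD, n = 3 each). Aldoa, an aldolase, followed with 704.7 ± 20.3 and 720.0 ± 32.7 CPM per kb. Pkm, the pyruvate kinase of brain, came next with 518.5 ± 17 in low-Mn and 521.6 ± 20.4 CPM per kb in normal-Mn cerebellum, beyond which the order ran to Ldhb, Eno1 and Mdh1. Within each diet the first 3 levels were separated by more than their SDs. Eno1 and Mdh1 had 339.3 ± 7.08 and 320.3 ± 2.42 CPM per kb in low-Mn cerebellum, and 359.4 ± 12.9 and 335.8 ± 11.1 CPM per kb in normal-Mn cerebellum, where their SDs touched. The lowest level was that of Hk2, the inducible hexokinase, at 3.48 ± 0.319 in low-Mn and 3.49 ± 0.512 CPM per kb in normal-Mn cerebellum. Rpia and Suclg2, the isomerase of ribose phosphate and the GTP-forming subunit of succinate-CoA ligase, were also below 10 CPM per kb on both diets. All 44 together took 1.21% to 1.30% of the counts of a library.

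**Figure D1:**
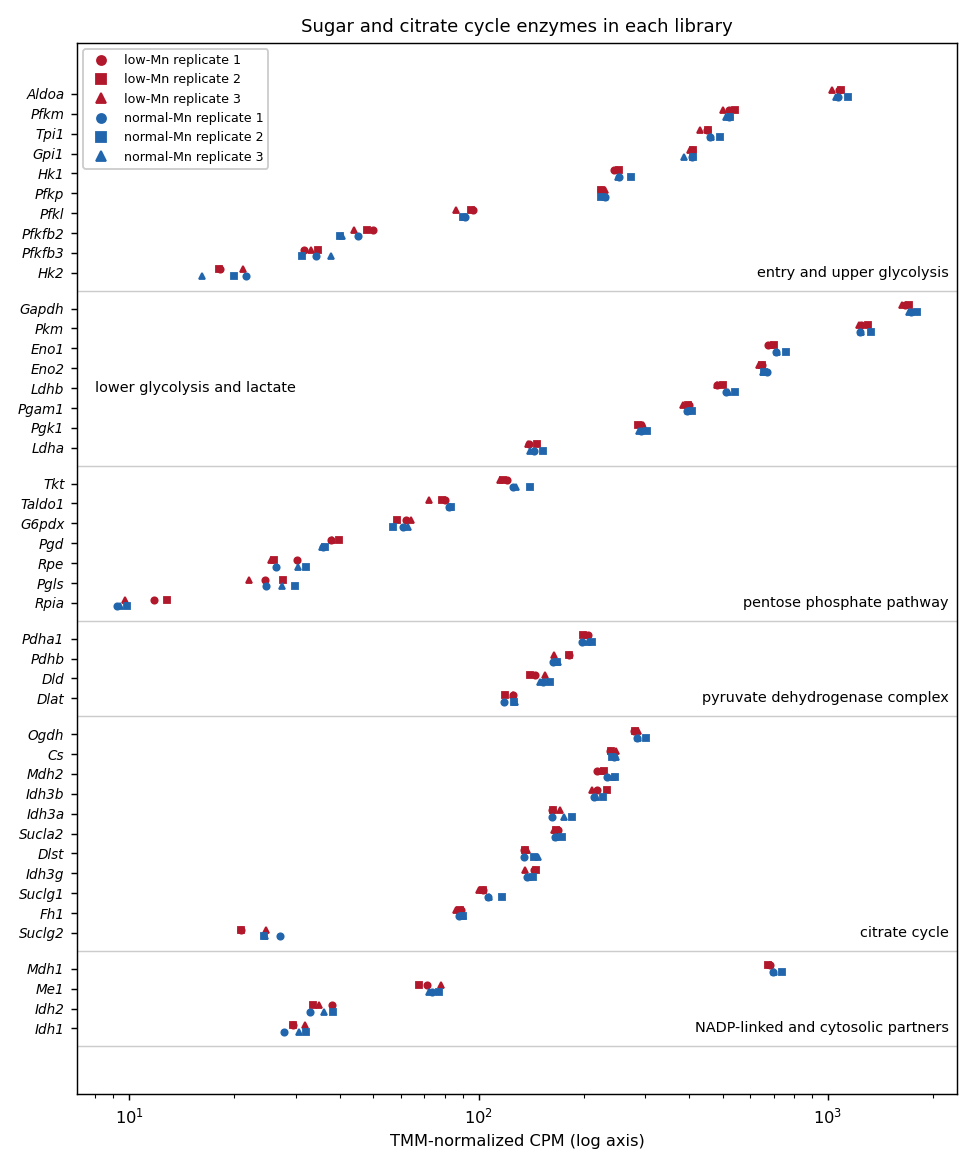
CPM of the 44 enzymes in each library, on a log axis, grouped by role. Red symbols are the 3 low-Mn libraries and blue symbols the 3 normal-Mn libraries. The spread of levels between enzymes, from Rpia near 9.22 CPM to Gapdh near 1806 CPM, is far wider than any gap between the diets.

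Transcripts of isozymes, the forms of an enzyme, were compared as shares of their family. Protein and activity were not measured. Hk1, the brain hexokinase, made up 93.4 ± 0.883% of the summed level per kb of its family in low-Mn and 93.4 ± 0.294% in normal-Mn cerebellum. Among the phosphofructokinases, Pfkm held 69.5 ± 0.705% in low-Mn and 69.4 ± 0.532% in normal-Mn cerebellum. Both families thus had 1 leading form, with the same share on both diets within the spread of the libraries. Aldolase was shared almost evenly, Aldoa holding 49.7 ± 0.78% in low-Mn and 49.5 ± 0.587% in normal-Mn cerebellum, with nearly all of the rest from Aldoc, the brain aldolase. Of the enolases, Eno1, the form of most tissues, held 58.6 ± 0.604% in low-Mn and 59.6 ± 1.08% in normal-Mn cerebellum. Eno2, the neuronal enolase, held 39.8 ± 0.589% and 39.1 ± 0.966%. Sucla2, the ATP-forming subunit of succinate-CoA ligase, held 91.9 ± 0.81% in low-Mn and 91.0 ± 0.652% in normal-Mn cerebellum. For malate dehydrogenase the cytosolic Mdh1 led the mitochondrial Mdh2, with 67.6 ± 0.696% in low-Mn and 67.0 ± 0.503% in normal-Mn cerebellum. For the NADP-linked isocitrate dehydrogenases the mitochondrial Idh2 led the cytosolic Idh1, with 60.7 ± 1.97% in low-Mn and 61.0 ± 0.26% in normal-Mn cerebellum.

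Among the 9 isozyme pairs compared, only that of lactate dehydrogenase did not overlap between the diets. Ldhb, the heart-type subunit, held most of the family, with 82.4 ± 0.185% in low-Mn and 82.9 ± 0.274% in normal-Mn cerebellum. The ratio of Ldha, the muscle-type subunit, to Ldhb in CPM was 0.288, 0.294 and 0.287 in the low-Mn libraries, against 0.282, 0.281 and 0.272 in the normal-Mn libraries. All 3 low-Mn ratios were above all 3 normal-Mn ratios. The log2 ratio was higher by 0.057 in low-Mn cerebellum (exact two-sided permutation test, p = 0.1, adjusted p = 0.9 over 9 pairs). With 3 libraries against 3, 0.1 is the smallest p this test can give, so no pair could pass. Any pair without overlap gets this p, the share of library splits that separate as fully. No excess over that share was shown across the 9 pairs. The other 8 ratios overlapped between the diets, and their differences ran from -0.18 for Suclg2 to Sucla2 up to 0.040 for Pfkl to Pfkp on the log2 scale.

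**Figure D2:**
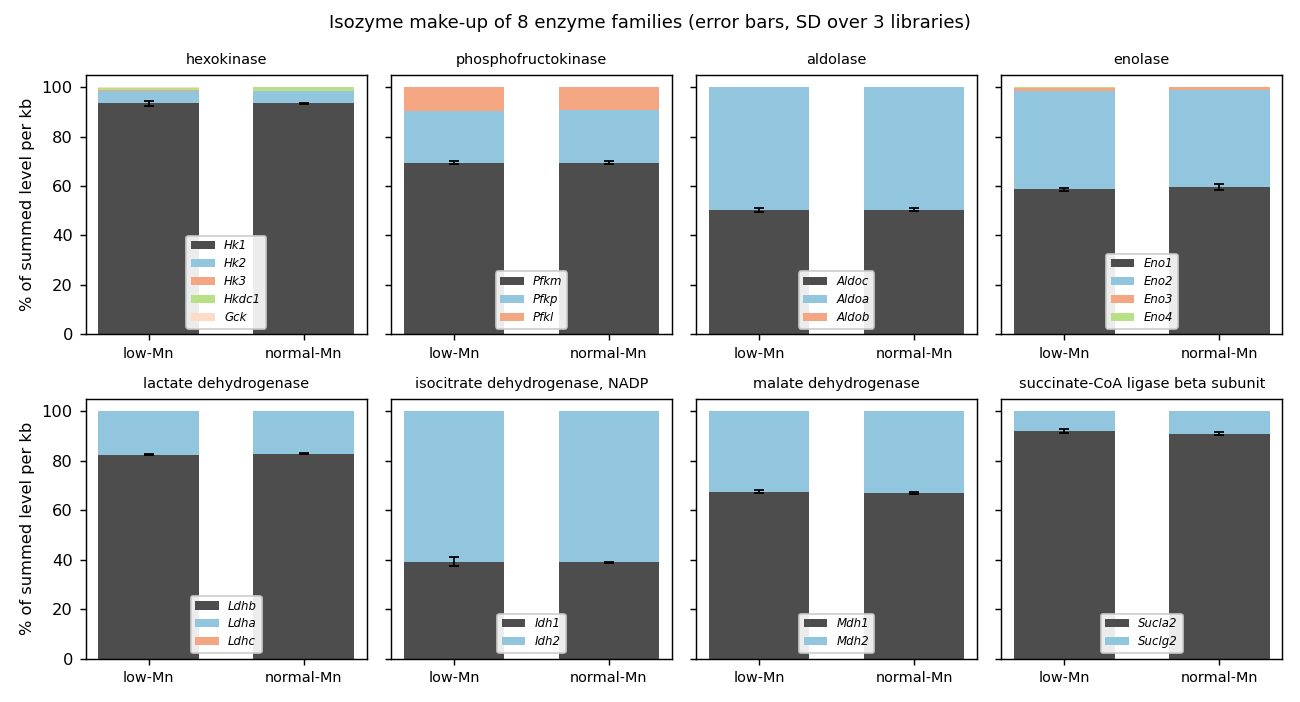
Share of each isozyme in the summed level per kb of its family, as the mean of 3 low-Mn (left bar) and 3 normal-Mn (right bar) libraries. Error bars are SDs of the isozyme at the foot of each bar. The 2 bars of every family are nearly alike, with Hk1 at 93.4% on both diets and Ldhb at 82.4% in low-Mn and 82.9% in normal-Mn cerebellum.

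The main comparison asked whether 2 weeks of low dietary Mn altered the transcripts of these enzymes. No enzyme of the 44 passed the test (edgeR quasi-likelihood, adjusted p under 0.05), where 0.595% of the 16123 genes tested passed, 0.416% as higher and 0.18% as lower in low-Mn cerebellum. The smallest adjusted p was 0.207 and the largest 0.989. At an unadjusted p under 0.05 edgeR gave 4 enzymes, 3 lower (Tkt, Ldhb and Mdh2) and 1 higher (Pfkfb2) in low-Mn cerebellum, where 12.1% of all genes had such a p, 5.58% lower and 6.54% higher. The same count was 7 by limma-voom and 6 by DESeq2, neither of which called any of the 44. Without normal-Mn replicate 2 it was 1.

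Values were nonetheless mostly a little lower in low-Mn cerebellum. The log2 fold change (low-Mn divided by normal-Mn) was below 0 for 33 of 44 enzymes (75%), where it was below 0 for 50.8% of all genes. Its median over the 44 was -0.028 and over all genes -0.0025. The fold changes ran from -0.19 (Suclg2) to 0.27 (Rpia), and their median size was 0.045 against 0.092 over all genes. For 11 enzymes (25%) the libraries of the 2 diets did not overlap, against 17.1% of all genes. Low-Mn libraries were lower for 10 of these (Tkt, Taldo1, Suclg1, Mdh2, Ldhb, Tpi1, Eno1, Gapdh, Mdh1 and Eno2), a direction that 8.32% of all genes showed, and higher for Pgd alone, a direction that 8.79% showed.

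The size of a change that these libraries left room for was small. The 95% interval of the fold change lay within 1.1-fold in either direction for 16 enzymes (36.4%, against 8.11% of all genes) and within 1.2-fold for 38 (86.4%, against 42.3%). The 6 whose intervals reached further were Pfkfb2, Pgls, Rpia, Rpe, Tkt and Suclg2, and no interval reached 1.5-fold. Coefficients of variation between libraries of a diet had a median of 2.91% in low-Mn and 3.40% in normal-Mn cerebellum over the 44, against 7.29% and 7.15% over all genes. The median standard error of the log2 fold change was 0.048 over the 44 and 0.096 over all genes. All genes were not matched to the enzymes for level, here or for the median size of change above.

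**Figure D3:**
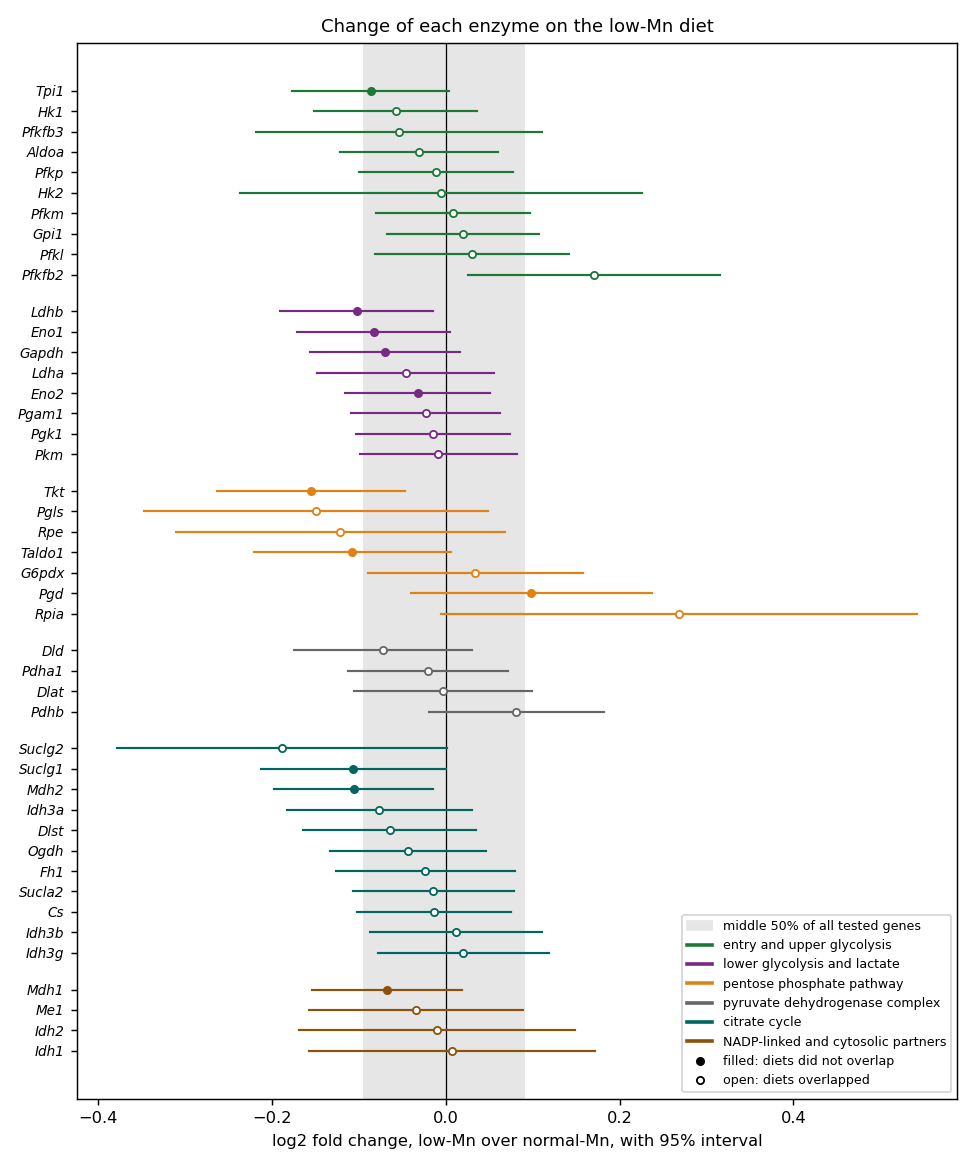
Log2 fold change of each enzyme (edgeR, low-Mn divided by normal-Mn) with its 95% interval, grouped by role. Filled points mark the 11 enzymes whose diets did not overlap, and the grey band spans the middle 50% of all tested genes, from -0.095 to 0.089. Most points lie left of 0 and inside the band.

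In the first steps of glycolysis, from hexokinase to triose phosphate isomerase, 6 of 10 enzymes were below 0 and the median log2 fold change was -0.0086. Tpi1, which interconverts the triose phosphates, had 449.8, 454.3 and 430.7 CPM in the low-Mn libraries, against 461.4, 492.9 and 463.1 CPM in the normal-Mn libraries. The diets did not overlap, and normal-Mn replicate 2 stood above the rest (log2 fold change -0.087 ± 0.043 SE, edgeR adjusted p = 0.432). Pfkfb2, a bifunctional kinase and phosphatase that sets the fructose bisphosphate activator of phosphofructokinase, had 49.7, 48.0 and 43.9 CPM in low-Mn and 45.1, 40.1 and 40.6 CPM in normal-Mn libraries. The 2 highest libraries were both low-Mn, but low-Mn replicate 3 was below normal-Mn replicate 1 (log2 fold change 0.17 ± 0.070, edgeR adjusted p = 0.317). Pfkfb3, the inducible enzyme of the same kind, had a log2 fold change of -0.054, which changed sign to 0.015 without normal-Mn replicate 3. Aldoa had 1074.3, 1089.6 and 1030.6 CPM in low-Mn libraries, against 1066.9, 1144.4 and 1052.6 CPM in normal-Mn libraries. Pfkm, the muscle-type phosphofructokinase, had 520.1, 543.1 and 501.8 CPM in low-Mn and 522.0, 524.4 and 509.8 CPM in normal-Mn libraries. Aldoa and Pfkm overlapped between the diets. Hk1, Hk2, Gpi1, Pfkl and Pfkp, which begin glycolysis or commit sugar to it, lay between -0.058 and 0.030 on the log2 scale.

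From Gapdh to lactate dehydrogenase, all 8 enzymes were below 0, with a median log2 fold change of -0.040, and 4 of the 8 did not overlap between the diets, where 8.32% of all genes were lower without overlap. Ldhb had 483.1, 500.2 and 481.7 CPM in low-Mn libraries, against 512.4, 544.0 and 516.5 CPM in normal-Mn libraries. Each low-Mn library was below each normal-Mn library, by a log2 fold change of -0.10 ± 0.042 SE (edgeR adjusted p = 0.321). Eno1 had 674.1, 702.7 and 686.5 CPM in low-Mn and 712.9, 758.7 and 714.0 CPM in normal-Mn libraries. Gapdh had 1659.0, 1702.9 and 1630.7 CPM in low-Mn and 1730.9, 1806.1 and 1703.6 CPM in normal-Mn libraries, where the highest low-Mn and the lowest normal-Mn library nearly met. Gapdh and Eno1 share sequence with near copies in the genome, Gapdh 25.1% and Eno1 26.0% of their stretches of 50 bases. Adding the counts of pseudogenes that share at least 10% changed no call among the 44 enzymes. It moved the log2 fold change from -0.07 to -0.072 for Gapdh and from -0.083 to -0.082 for Eno1. Eno1b, which shares 25.3% with Eno1 and is annotated as protein coding, was not added. Eno2 had 649.7, 646.5 and 637.1 CPM in low-Mn libraries, against 670.8, 656.0 and 650.7 CPM in normal-Mn libraries, with the nearest libraries of the diets almost level. Pkm had 1245.4, 1308.0 and 1229.7 CPM in low-Mn and 1236.7, 1325.7 and 1243.5 CPM in normal-Mn libraries. Pkm overlapped, as did Pgk1 and Pgam1, which carry the phosphoglycerate steps, and Ldha. Pgk1 shared 53.9%, Pgam1 36.2%, Pkm 25.8% and Ldhb 21.0% of their sequence with other genes, so their counts are less certain. Of the 44 enzymes, 15 shared at least 10%. Without normal-Mn replicate 2, 6 of the 8 were below 0 and the median was -0.025.

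**Figure D4:**
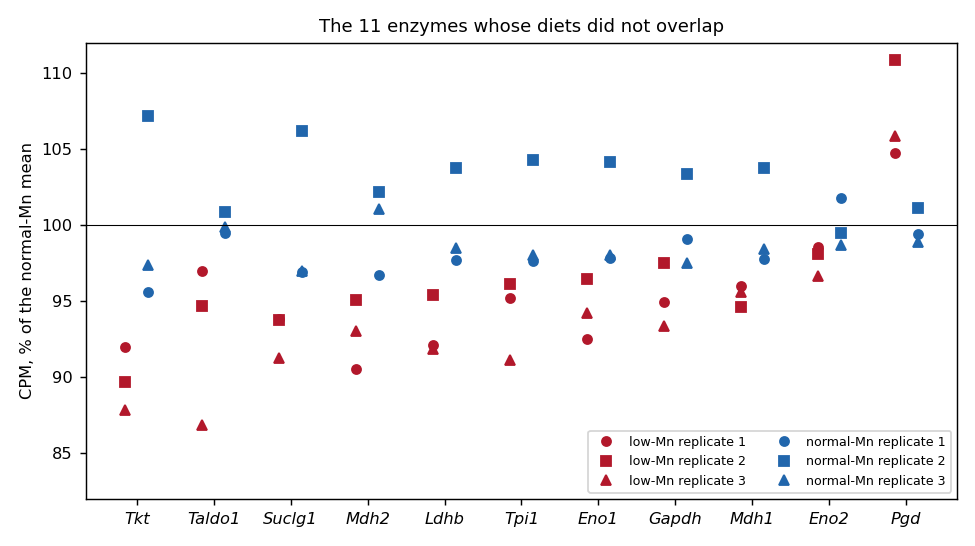
CPM of the 11 enzymes whose diets did not overlap, as a percent of the normal-Mn mean of each, with low-Mn libraries in red at the left and normal-Mn libraries in blue at the right of each enzyme. The vertical axis does not start at 0. Normal-Mn replicate 2 (blue squares) is the highest library for 9 of the 10 enzymes that were lower on the low-Mn diet, Eno2 being the other.

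The 7 enzymes of the pentose phosphate pathway were the most spread, with 4 below 0 and a median log2 fold change of -0.11, which was -0.061 when low-Mn replicate 3 was left out and -0.059 when normal-Mn replicate 2 was. Tkt, the transketolase that links this pathway back to glycolysis, had 120.8, 117.8 and 115.3 CPM in low-Mn libraries, against 125.5, 140.7 and 127.9 CPM in normal-Mn libraries. No library crossed over, and normal-Mn replicate 2 was well above the others. Its log2 fold change was -0.16 ± 0.052 SE with a 95% interval of -0.26 to -0.047, the smallest p of the 44 (edgeR adjusted p = 0.207). Its adjusted p ran from 0.0951 to 0.579 over 14 alternatives of the processing. Taldo1, the transaldolase that acts beside it, had 80.3, 78.4 and 71.9 CPM in low-Mn and 82.4, 83.5 and 82.7 CPM in normal-Mn libraries. Here the normal-Mn libraries agreed closely and low-Mn replicate 3 was the lowest (log2 fold change -0.11 ± 0.054, edgeR adjusted p = 0.435). Pgd, the phosphogluconate dehydrogenase that yields NADPH, had 37.7, 39.9 and 38.1 CPM in low-Mn libraries, against 35.8, 36.4 and 35.6 CPM in normal-Mn libraries. It was the single enzyme with all low-Mn libraries above all normal-Mn libraries (log2 fold change 0.098 ± 0.066, edgeR adjusted p = 0.597). Rpia had 11.8, 12.8 and 9.74 CPM in low-Mn and 9.22, 9.85 and 9.38 CPM in normal-Mn libraries. The largest log2 fold change of the 44 in size, 0.27 ± 0.13, thus came from low-Mn replicates 1 and 2 of a rare transcript (edgeR adjusted p = 0.424). G6pdx, the glucose phosphate dehydrogenase that begins the pathway, averaged 23.2 ± 1.05 CPM per kb in low-Mn and 22.7 ± 1.07 CPM per kb in normal-Mn cerebellum. Pgls, the lactonase that follows it, and Rpe, the epimerase of ribulose phosphate, had log2 fold changes of -0.15 and -0.12 with overlapping libraries. Parts of G6pdx and of Rpe lie in transcripts of the genes Ikbkg and Kansl1l, so reads there may belong to either.

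In the pyruvate dehydrogenase complex, 3 of 4 subunits were below 0 (2 without low-Mn replicate 2 or normal-Mn replicate 3, and 1 without normal-Mn replicate 2) and all 4 overlapped between the diets. Pdha1, the catalytic alpha subunit, had 205.7, 199.6 and 201.1 CPM in low-Mn libraries, against 198.2, 211.2 and 205.8 CPM in normal-Mn libraries. Pdhb, the beta subunit of the same enzyme, had 181.9, 182.0 and 164.9 CPM in low-Mn and 163.3, 167.8 and 168.6 CPM in normal-Mn libraries. In Pdhb low-Mn replicates 1 and 2 were above every normal-Mn library and replicate 3 was within their range (log2 fold change 0.081 ± 0.048, edgeR adjusted p = 0.527). Dld, the dehydrogenase subunit shared with the oxoglutarate complex, had 145.5, 140.5 and 154.8 CPM in low-Mn libraries, against 152.8, 160.5 and 150.3 CPM in normal-Mn libraries. Dlat, the acetyl transferase subunit, had a log2 fold change of -0.0033.

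In the citrate cycle, 9 of 11 enzymes were below 0, with a median log2 fold change of -0.044 (-0.025 without normal-Mn replicate 2). The diets did not overlap for 2 (18.2%, against 17.1% of all genes). Both were lower in low-Mn cerebellum, a direction that 8.32% of all genes showed. Mdh2, which closes the cycle by making oxaloacetate from malate, had 218.1, 229.0 and 224.2 CPM in low-Mn libraries, against 233.0, 246.1 and 243.4 CPM in normal-Mn libraries. Suclg1, the alpha subunit of succinate-CoA ligase, had 103.3, 103.2 and 100.5 CPM in low-Mn and 106.7, 116.9 and 106.8 CPM in normal-Mn libraries. Both had a log2 fold change of -0.11, with edgeR adjusted p = 0.323 for Mdh2 and 0.416 for Suclg1. Without normal-Mn replicate 2 the value was -0.062 for Suclg1 and -0.091 for Mdh2. Suclg2 had the lowest log2 fold change of the 44, -0.19 ± 0.091, at a low level of 6.57 ± 0.64 CPM per kb in low-Mn and 7.49 ± 0.45 CPM per kb in normal-Mn cerebellum, and its diets overlapped. Cs, citrate synthase, which begins the cycle, had 237.9, 239.0 and 248.1 CPM in low-Mn libraries, against 243.7, 240.6 and 247.8 CPM in normal-Mn libraries. Ogdh, the first subunit of the oxoglutarate dehydrogenase complex, had 278.2, 280.8 and 286.5 CPM in low-Mn and 283.5, 301.7 and 286.4 CPM in normal-Mn libraries. Neither Cs nor Ogdh separated the diets. The 3 subunits of the NAD-linked isocitrate dehydrogenase overlapped between the diets, with log2 fold changes of -0.077 (Idh3a), 0.012 (Idh3b) and 0.020 (Idh3g). Dlst, the succinyl transferase of the oxoglutarate complex, was at -0.065, Fh1, fumarase, at -0.024 and Sucla2 at -0.015.

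Of the NADP-linked and cytosolic partners, 3 of 4 were below 0, which became 1 of 4 when low-Mn replicate 2 was left out and 2 of 4 when normal-Mn replicate 2 was. Mdh1, the cytosolic malate dehydrogenase that carries reducing power to mitochondria in the malate-aspartate shuttle, had 683.9, 674.0 and 681.2 CPM in low-Mn libraries, against 696.5, 739.5 and 701.5 CPM in normal-Mn libraries. The diets did not overlap (log2 fold change -0.068 ± 0.041, edgeR adjusted p = 0.540). Me1, the cytosolic malic enzyme, had 71.1, 67.7 and 78.0 CPM in low-Mn and 73.4, 76.8 and 71.9 CPM in normal-Mn libraries, with both extremes in the low-Mn group. Idh1 and Idh2 lay at 0.0069 and -0.010 on the log2 scale.

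The other genes of these pathways were read from a list of 60, of which 48 were tested. None passed (edgeR). An unadjusted p under 0.05 was found for 5, of which 2 were higher and 3 lower (against 12.1% of all genes). The log2 fold change was below 0 for 30 of 48 (62.5%, against 50.8% of all genes), with a median of -0.025. The diets did not overlap for 6 (12.5%, against 17.1% of all genes), 3 higher (Tigar, Slc16a7 and Pdp1) and 3 lower (Mpc1, Prps2 and Pdpr). The smallest p belonged to Mpc1, a subunit of the carrier that takes pyruvate into mitochondria, with 143.5, 149.7 and 147.6 CPM in low-Mn libraries, against 152.6, 169.2 and 172.8 CPM in normal-Mn libraries. Its log2 fold change was -0.17 (edgeR adjusted p = 0.165), and Mpc1 passed the threshold only when no filter on low counts was used (edgeR adjusted p = 0.0409). It shares 26.3% of its sequence with other genes. Pdp1, a phosphatase that activates pyruvate dehydrogenase, had 55.0, 55.4 and 52.1 CPM in low-Mn and 48.1, 47.6 and 51.7 CPM in normal-Mn libraries (edgeR adjusted p = 0.348). Bpgm, which makes bisphosphoglycerate, had 66.1, 56.6 and 61.9 CPM in low-Mn and 65.8, 73.5 and 65.6 CPM in normal-Mn libraries. Prps2, a phosphoribosyl pyrophosphate synthetase, had 19.3, 17.2 and 20.3 CPM in low-Mn libraries, against 21.7, 21.2 and 20.8 CPM in normal-Mn libraries. Slc16a7, a carrier of lactate and pyruvate, had 26.9, 24.7 and 26.6 CPM in low-Mn libraries, against 22.5, 22.1 and 23.4 CPM in normal-Mn libraries (log2 fold change 0.20, edgeR adjusted p = 0.317). It is named after its values were seen. Aco1, the cytosolic aconitase that also serves as an iron sensor, had 38.0, 43.3 and 38.5 CPM in low-Mn libraries, against 35.9, 33.9 and 38.1 CPM in normal-Mn libraries (log2 fold change 0.15, edgeR adjusted p = 0.429). Among the gluconeogenic genes the smallest p was that of G6pc3, a widely expressed glucose phosphatase, at a log2 fold change of -0.026. Pcx, the pyruvate carboxylase that binds Mn, was looked at for that reason and had 137.0, 132.1 and 144.6 CPM in low-Mn libraries, against 135.6, 137.0 and 138.4 CPM in normal-Mn libraries. Its libraries overlapped (edgeR adjusted p = 0.961).

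The small shift of the enzymes was carried unevenly by the libraries. Normal-Mn replicate 2 was the highest library for 25 of 44 enzymes (56.8%, against 19.5% of all genes) and low-Mn replicate 3 the lowest for 19 (43.2%, against 16.4%). Without normal-Mn replicate 2, 26 of 44 enzymes were below 0 and their median log2 fold change was -0.015. In that fit the medians of early glycolysis (0.010), the pyruvate dehydrogenase complex (0.0046) and the NADP-linked and cytosolic partners (0.017) were above 0. Those of later glycolysis (-0.025), the pentose phosphate pathway (-0.059) and the citrate cycle (-0.025) were below 0. Without normal-Mn replicate 1, the median of early glycolysis was above 0, at 0.0032. Without low-Mn replicate 2, those of the pyruvate dehydrogenase complex (0.0041) and the NADP-linked and cytosolic partners (0.016) were above 0. Among the enzymes whose diets did not overlap, the log2 fold changes without normal-Mn replicate 2 were -0.056 for Tpi1, -0.054 for Eno1, -0.046 for Gapdh and -0.041 for Mdh1. That of Taldo1 was -0.061 without low-Mn replicate 3, and that of Eno2 was -0.020 without normal-Mn replicate 1.

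Markers of the cell types of the tissue were read in the same libraries. The cerebellar markers Gabra6, of granule neurons, and Calb1, of Purkinje neurons, averaged 635.8 ± 20.9 and 1232 ± 41.5 CPM in low-Mn cerebellum, against 636.8 ± 19.4 and 1261 ± 4.06 CPM in normal-Mn cerebellum (SD, n = 3 each). Oligodendrocyte markers were below 0 in 9 of 10 genes and summed to 6945 to 7233 CPM in low-Mn and 7413 to 8234 CPM in normal-Mn libraries. Astrocyte markers were below 0 in 8 of 10 genes and summed to 4200 to 4309 CPM in low-Mn and 4420.1 to 4600 CPM in normal-Mn libraries. Microglial markers were below 0 in 9 of 10 genes, at 154.4 to 163.1 CPM in low-Mn and 172.3 to 177.4 CPM in normal-Mn libraries. Markers of the choroid plexus (3508 to 4341 CPM in low-Mn, 4145 to 5005 CPM in normal-Mn libraries) and of the meninges (322.7 to 377.3 CPM in low-Mn, 399.6 to 449.3 CPM in normal-Mn libraries) were below 0 in 9 of 10 genes each. None of the markers of these 5 lists was at 0. Granule markers had a median log2 fold change of 0.017, with 2 genes higher (Neurod1 and Zic1) and 1 lower (Zic2) without overlap. Purkinje markers had one of 0.022, with 1 higher (Slc1a6) and 2 lower (Ppp1r17 and Gad1). Endothelial and mural markers were below 0 in 5 of 10 genes, with a median of -0.001 and 2 higher and 0 lower without overlap. Of all genes, 8.79% were higher and 8.32% lower without overlap. The red blood cell markers overlapped widely. The part of these markers in the values of the enzymes was not tested. In whole tissue, fewer cells of a type and less RNA per cell cannot be told apart.

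**Figure D5:**
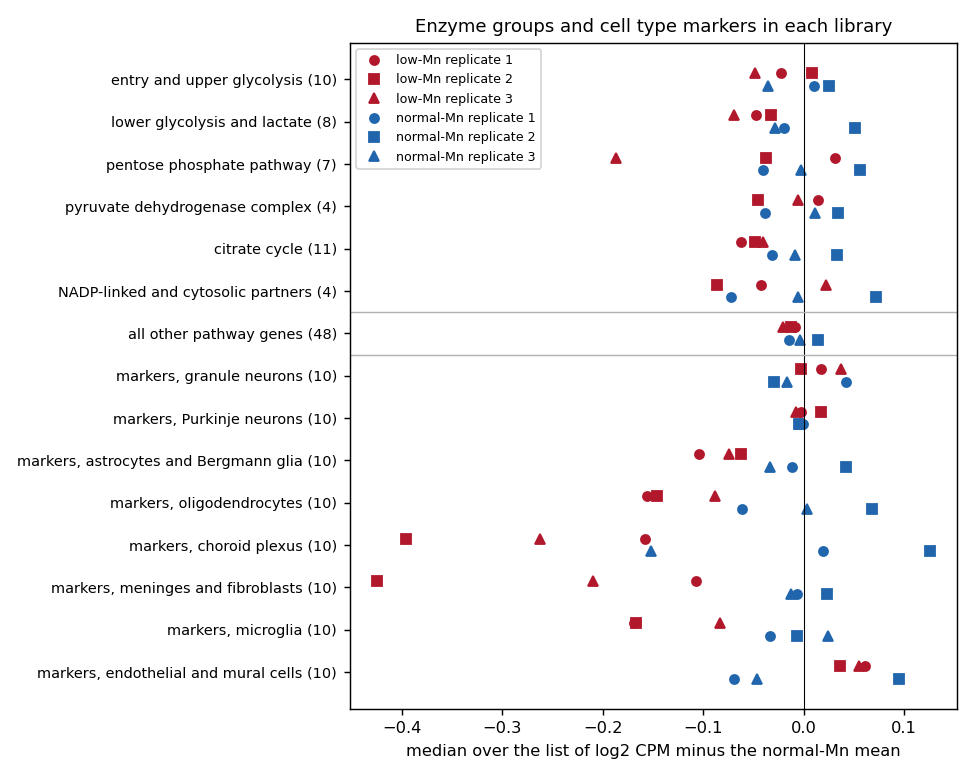
Median over each list of log2 CPM relative to the normal-Mn mean of each gene, in each library, with the number of genes in brackets. Red symbols are low-Mn and blue symbols normal-Mn libraries. The enzyme groups lie within about 0.1 of 0 except for the pentose phosphate pathway in low-Mn replicate 3 (-0.19). All 3 low-Mn libraries lie below every normal-Mn library for later glycolysis, the citrate cycle and the markers of astrocytes, oligodendrocytes, choroid plexus, meninges and microglia.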

How the data were processed

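Expected counts per gene, deposited by the authors without normalization, were analysed for 3 low-Mn and 3 normal-Mn cerebellar libraries. The submitters' processing notes name STAR, RSEM, FastQC, DESeq2 and the mm10 genome, none with a version. The labels name a directional kit and the methods a kit without strand, and no source used here gives the strand setting of the counting. Groups follow the labels. The low-Mn columns carry a replicate number alone and the normal-Mn columns also the dose. All 92 spike-in entries held 0 counts and were dropped. The 44 enzymes, the lists of other pathway genes and markers, and the tests were chosen with earlier results of these data known. Aldoa has 2 identifiers, of which the one with most counts was used.

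Counts were rounded, kept by filterByExpr (minimum count 10, minimum total 15), scaled by TMM and tested with glmQLFit and glmQLFTest of edgeR 4.0.16 in R 4.3.3, with Benjamini-Hochberg adjustment over 16123 genes. TMM-normalized CPM is given per library. Alternatives were RLE and upper quartile scaling, no filter, a mean of at least 100 counts, limma-voom (limma 3.58.1), DESeq2 1.42.0, the replicate number as a block, each library left out in turn and, chosen after seeing the data, counts summed with pseudogenes. Values in every library are given for enzymes whose diets did not overlap and, in each role group, the 2 with the smallest p. They are also given for the 2 of each role group with the highest mean CPM in normal-Mn libraries. For the other pathway lists they are given for the gene with the smallest p, except G6pc3. Pcx and Slc16a7 were added after their values were seen, and 1 marker gene is not reported here. Shared sequence is given as the percent of exonic 50-mers of a gene that another annotated gene also holds. The edgeR step was tested on simulated counts with changes of at least 1.5-fold, so the smaller changes of the enzymes were not covered. Figures were made in Python 3.11.15 with matplotlib 3.10.9.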

Additional observations from a re-analysis of the deposited data

How the results depend on the processing

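No enzyme of the 44 passed the threshold under any of the 14 alternatives, and 4 of the 44 had no adjusted p in DESeq2. The smallest adjusted p was 0.0951, for Tkt with no filter on low counts (edgeR). Over all genes, 424 passed with no filter, 63 with limma-voom, 90 with upper quartile scaling, 137 with DESeq2, and 37 to 93 with each library left out in turn, against 96. With no filter 1 other pathway gene passed, Mpc1 at a log2 fold change of -0.17. The median log2 fold change of the enzymes stayed below 0, from -0.045 to -0.015 with each library left out, and at -0.039 with upper quartile scaling. Enzymes whose low-Mn libraries were all lower numbered 10 to 16, and those whose low-Mn libraries were all higher 1 to 6, with each library left out. The count was 16 without normal-Mn replicate 1 (14.2% of all genes) and 6 without low-Mn replicate 3 (14.8%). The count of unadjusted p under 0.05 ran from 1 without normal-Mn replicate 2 to 10 with no filter. Of the 44, 15 changed sign under some alternative, and of the 21 with a log2 fold change over 0.05 in size only Pfkfb3 did. The causes were not tested. Over all tested genes, deviations of same-numbered libraries of the diets correlated at only 0.030, -0.024 and 0.036. Those of differently numbered libraries correlated at -0.049 to 0.019. Such low values show no strong pairing by replicate number, but cannot exclude pairing in some genes. With the replicate number as a block, 128 genes and none of the enzymes passed, 33 enzymes were below 0 with a median of -0.027, and 7 had an unadjusted p under 0.05. No duplicate libraries were found. The standard error was largest for Rpia, at 0.13, followed by Hk2 at 0.11, and exact tests of 3 libraries against 3 cannot pass.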
